A study of Homo sapiens with 6 samples.

Results

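The genes described here are 7 genes known from mast cells and basophils, namely TPSAB1, TPSB2, CPA3, HDC, MS4A2, FCER1A and HPGDS. They were taken by symbol from a counts table of 31966 genes. Of the 7, 4 had a row (TPSAB1, TPSB2, CPA3 and HDC) and 2, the tryptase genes TPSAB1 and TPSB2, had enough counts to be tested. Every row of the table held at least 1 count in the 6 libraries together. MS4A2, FCER1A and HPGDS had no row under their symbol or their Ensembl identifier and were not analysed further.

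RNA had been sequenced from Kasumi-1 cells, a human line from an acute myeloid leukaemia known for its RUNX1-RUNX1T1 fusion. The control group (n = 3) carried a doxycycline-inducible hairpin RNA against luciferase, labelled shLUC. The FBL knockdown group (n = 3) carried an inducible hairpin against FBL, labelled shFBL, and both groups had been given doxycycline at 100 ng/ml for 72 h. FBL encodes fibrillarin, the enzyme that methylates ribose sugars of ribosomal RNA under the guidance of small nucleolar RNAs. The labels do not say whether replicates were separate cultures or whether a line came from a single clone. The p-values therefore reflect the spread between these libraries alone, which may be technical. Each group had a single hairpin label, and effects of the FBL hairpin or its line other than the loss of FBL were not tested. Libraries held 85556322 to 103148412 counts. FBL itself stood at 544 to 580 CPM (counts scaled to library size, with TMM factors) in controls against 32.4 to 54.0 CPM under knockdown (log2 fold change -3.67 ± 0.16, SE; adjusted p = 3.93e-06, edgeR quasi-likelihood test), so each library matched its label.

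Mast cells and basophils store preformed mediators in granules and release them when allergen cross-links IgE on the high-affinity IgE receptor. Tryptases and the carboxypeptidase CPA3 are granule proteases held on the proteoglycan serglycin. HDC makes histamine from histidine, and HPGDS makes prostaglandin D2. FCER1A and MS4A2 encode the alpha and beta chains of the receptor, whose gamma chain, FCER1G, is shared with other Fc receptors. KIT signalling, GATA2 and MITF are known for their part in mast cell development. Kasumi-1 is a myeloblast line that carries KIT, and tryptase transcripts can be found in some myeloid leukaemias.

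The main measured genes of the set are near copies of each other. TPSAB1 (ENSG00000172236) lies on GRCh38 chromosome 16 from 1240696 to 1242554 on the plus strand, and TPSB2 (ENSG00000197253) from 1227272 to 1230184 on the minus strand. TPSAB1 encodes alpha or beta tryptase depending on the allele, and TPSB2 encodes beta tryptase. In the GENCODE v29 transcripts the coding parts were 825 bases each without the stop codon, could be aligned without a gap and differed at 4 bases (99.5% identity). All 4 differences lie in the first 158 coding bases, and the remaining 667 bases, positions 159 to 825, are the same in both. The stretch from coding position 39 to 158 holds every difference and is shown because only reads that cover it, or the untranslated ends, can tell the coding parts of these reference transcripts apart. It spans an intron in both genes (chr16:1240977-1241249, plus strand, for TPSAB1 and chr16:1229641-1229913, minus strand, for TPSB2). Capitals mark the bases that differ, at coding positions 96, 152, 155 and 158 counted from the first base of the start codon.
TPSAB1: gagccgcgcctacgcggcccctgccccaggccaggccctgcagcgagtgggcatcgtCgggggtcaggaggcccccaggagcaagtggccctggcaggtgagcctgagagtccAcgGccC
TPSB2: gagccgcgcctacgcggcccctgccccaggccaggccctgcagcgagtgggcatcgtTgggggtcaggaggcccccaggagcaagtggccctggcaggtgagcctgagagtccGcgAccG
The next 60 bases, coding positions 159 to 218, open the shared stretch, within which a read that lies wholly inside it cannot be assigned to either transcript.
TPSAB1 and TPSB2: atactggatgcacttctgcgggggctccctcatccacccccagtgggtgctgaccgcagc

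Over the whole TPSAB1 transcript used (1175 bases), 59.0% of all 100-base windows also occurred letter for letter in a TPSB2 transcript, and 59.6% of the windows of the TPSB2 transcript (1165 bases) occurred in a TPSAB1 transcript. With windows of 150 bases these shares were 51.9% and 52.5%. The sources used here give neither the read length nor the treatment of reads with several matches, so the split of reads between the 2 rows is uncertain. TPSD1, the delta tryptase gene, is less alike: it shared 88.9% of aligned coding bases with each, and 5.93% of its 100-base windows occurred in the other tryptase genes. TPSG1, which encodes a membrane-anchored tryptase, shared no window of 50 bases with them.

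Both tryptase genes were higher in the FBL knockdown libraries. TPSAB1 stood at 2.04, 2.56 and 2.40 CPM in control replicates 1 to 3, against 4.37, 4.53 and 3.88 CPM in knockdown replicates 1 to 3. The groups did not overlap, and the lowest knockdown library lay well above the highest control. Mean levels were 2.33 ± 0.27 in controls and 4.26 ± 0.34 CPM under knockdown (SD, n = 3 each), and the log2 fold change was 0.87 ± 0.13 (SE), or 1.82-fold (adjusted p = 0.000638 by edgeR's quasi-likelihood test, Benjamini-Hochberg over all tested genes). These values rested on 190 to 250 counts per control library and 344 to 418 per knockdown library.

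For TPSB2 the control values were 2.51, 4.01 and 3.13 CPM, and the knockdown values 4.95, 5.69 and 4.31 CPM. The groups again did not overlap, but control replicate 2 came close to knockdown replicate 3. Mean levels were 3.22 ± 0.76 in controls and 4.98 ± 0.69 CPM under knockdown (SD, n = 3 each), and TPSB2 rose by 0.63 ± 0.17 on the log2 scale (SE; 1.55-fold; edgeR adjusted p = 0.0163). This call was lost without control replicate 3 (0.61, edgeR adjusted p = 0.0625) and without FBL knockdown replicate 2 (0.53, edgeR adjusted p = 0.089).

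Since the split of reads is uncertain, the rows were also summed and tested as 1 feature. The sum does not depend on the split if each shared read was counted once, which is not known. The pair together held 4.55, 6.57 and 5.53 CPM under the luciferase hairpin and 9.32, 10.2 and 8.19 CPM under the FBL hairpin. The sum rose from 5.55 ± 1.01 to 9.24 ± 1.02 CPM (SD, n = 3 each), a log2 fold change of 0.74 ± 0.14 (SE; 1.66-fold; edgeR adjusted p = 0.00276). It passed the threshold in each of the 17 alternative settings tried, with values from 0.61 to 0.87. In bulk RNA a change in the number of cells that hold a transcript and a change in its amount per cell cannot be told apart.

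**Figure D1:**
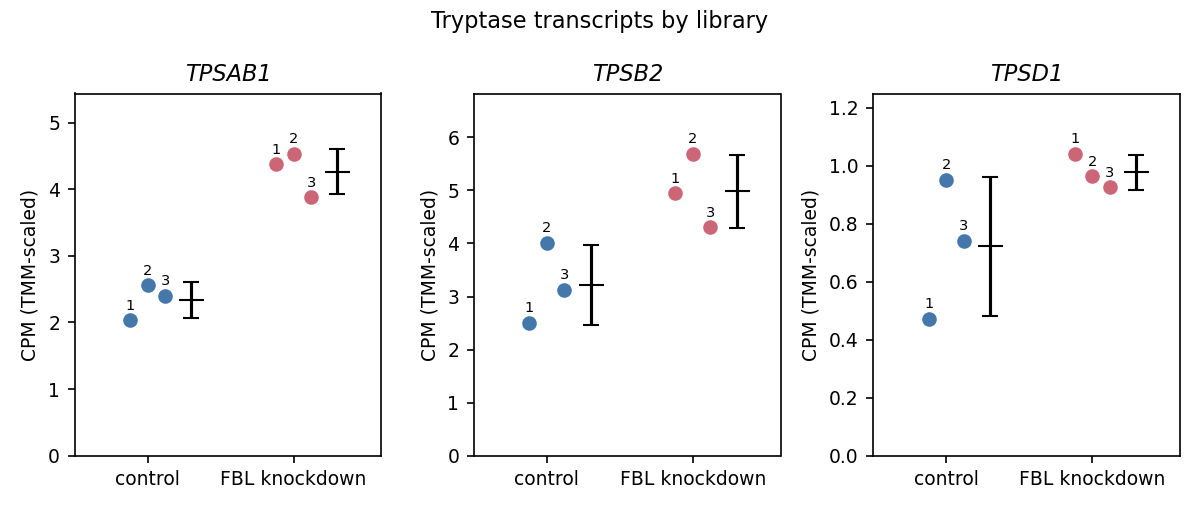
TMM-scaled CPM (vertical axis) of TPSAB1, TPSB2 and TPSD1 in the 3 control (blue) and 3 FBL knockdown (red) libraries, numbered by replicate; the black bar and whiskers are the mean and SD (n = 3). TPSAB1 and TPSB2 do not overlap between groups, whereas for TPSD1 control replicate 2 (0.952 CPM) lies above knockdown replicate 3 (0.925 CPM).

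Over the whole table, 15.8% of the 18486 tested genes were called higher and 17% lower by the same test, and the groups did not overlap for 45.2%. Under upper-quartile scaling 58.7% of all calls were higher, in place of 48.2%. Among the 6098 tested genes with a mean of 1 to 10 CPM, the range that holds both tryptase genes, 17.3% were called higher and 14.3% lower. In that range, 4.97% of the genes with a symbol had a log2 fold change at least as high as that of TPSAB1, and 8.81% one at least as high as that of TPSB2. Both tested members were called higher, but the 2 rows may share reads and cannot be taken as independent.

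Per length, the 2 tryptase rows as counted were at moderate and similar levels. On the deposited RPKM scale (reads scaled by gene length and library size), TPSAB1 averaged 1.55 ± 0.18 without and 2.81 ± 0.23 with FBL knockdown (SD, n = 3 each). TPSB2 was at 1.85 ± 0.44 and 2.86 ± 0.39 RPKM, so within each group the ranges of the pair overlapped. TPSAB1 and TPSB2 lay above 56.8% and 58.0% of tested genes in mean RPKM over the 6 libraries. How reads that match both genes were counted is not known. The levels of the 2 genes relative to each other and to other genes are therefore uncertain.

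TPSAB1 took 44.8%, 38.9% and 43.5% of the counts of the pair in control replicates 1 to 3 and 46.9%, 44.3% and 47.4% in knockdown replicates 1 to 3. The exact (Clopper-Pearson) 95% intervals were wide, from 35.1% to 42.8% in control replicate 2 and from 43.5% to 50.3% in knockdown replicate 1, and they cover counting error only. The mean shares were 42.4% ± 3.08 and 46.2% ± 1.65 (SD, n = 3 each), and an exact permutation test, 2-sided, gave p = 0.2, where 0.1 is the smallest possible. This test could not have passed 0.05 at these group sizes, and control replicate 1 lay above knockdown replicate 2.

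The tryptase transcripts are rich in G and C, at 65.1% for TPSAB1 and 65.3% for TPSB2 in the longest transcript, more than 96.5% and 96.7% of tested genes. The libraries differed in how well such genes were represented. In the tenth of tested genes with the highest GC content, the median log2 deviation from a gene's own mean was -0.27, 0.25 and -0.03 in control replicates 1 to 3 and 0.13, -0.07 and -0.01 in knockdown replicates 1 to 3. Control replicates 1 and 2 are thus the lowest and the highest on this measure, as they are among controls for TPSAB1, TPSB2 and TPSD1. With a correction for GC content in each library the log2 fold changes were 0.83 ± 0.11 for TPSAB1 and 0.61 ± 0.12 for TPSB2 (SE; edgeR adjusted p = 7.14e-05 and 0.00135). Without control replicates 1 and 2 together they were 0.82 ± 0.18 and 0.67 ± 0.17 (SE; edgeR adjusted p = 0.00013 and 0.00137), with 1 control library left, which is assumed to vary like the others.

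**Figure D2:**
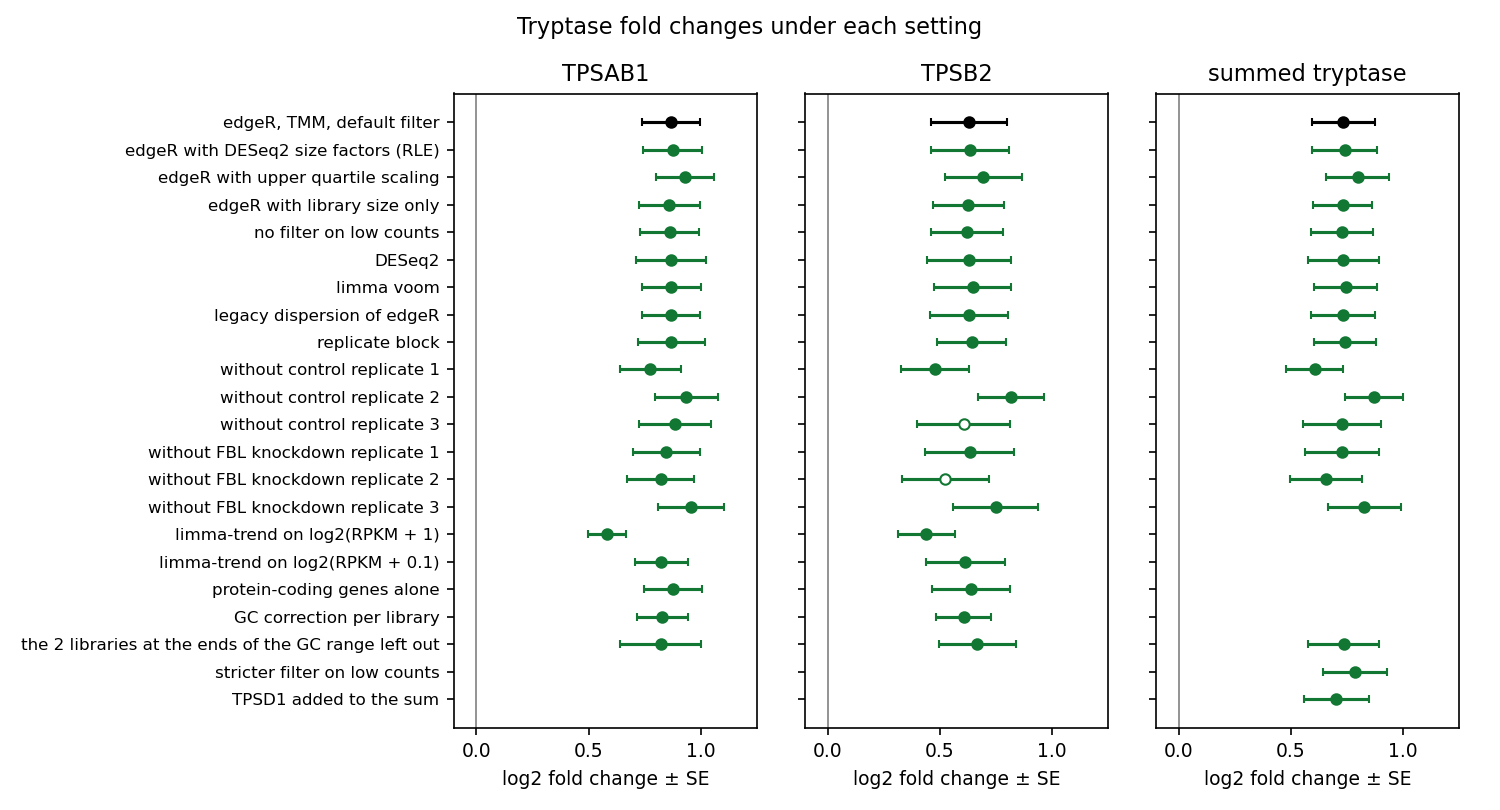
Log2 fold change of TPSAB1, TPSB2 and their summed row (horizontal axis, ± SE) under each analysis setting (vertical axis), with the setting used throughout in black; filled points passed an adjusted p of 0.05. Open points for TPSB2 mark the settings without control replicate 3 (0.61) and without FBL knockdown replicate 2 (0.53), and all values are above 0.

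The other members with a row were at the edge of detection. CPA3 (ENSG00000163751, chromosome 3, 148865256 to 148897196, plus strand) had 2, 0 and 0 counts in control replicates 1 to 3 and 1, 0 and 1 in knockdown replicates 1 to 3. HDC (ENSG00000140287, chromosome 15, 50241947 to 50266026, minus strand) had 3, 3 and 0 counts in controls, against 3, 0 and 1 under knockdown. Neither exceeded 3 counts in any library, a number worth 0.0297 to 0.0339 CPM at these depths, and both failed the filter on low counts, so no fold change is given. A difference between groups was not detectable for either gene at this depth. In all 6 libraries together, CPA3 had 4 counts and HDC 10, against 4153 for the tryptase pair, which therefore held 99.7% of the counts of the 4 genes with a row.

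Measured against its markers, the group was thus uneven. Its granule tryptases were present in every library, whereas the genes for CPA3 and histidine decarboxylase, which mature mast cells express strongly, were close to 0 in every library, and the other members had no row. What follows on the members is therefore mostly a description of tryptase transcripts in a myeloblast line.

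To place the members among related genes, lists were written from general knowledge and described by counts and medians. Of 30 other mast cell and basophil genes, 25 had a row and 18 were tested. Of these 7 were higher, 1 was lower and 10 did not pass, with a median log2 fold change of 0.36 against -0.01 over all tested genes (15.8% and 17% of all tested genes were called higher and lower). That median rests in part on weakly expressed genes. The listed genes tested with a mean under 1 CPM were all positive, with log2 fold changes from 0.43 to 1.38. Those at 1 CPM or more that did not pass lay on both sides, from -0.43 to 0.30. PTGDR2, the prostaglandin D2 receptor known from basophils and eosinophils, had the largest rise among those at 1 CPM or more. It went from 1.08, 1.03 and 1.23 CPM in controls to 2.66, 3.22 and 3.23 CPM under knockdown, with no overlap (log2 fold change 1.44 ± 0.15, SE; edgeR adjusted p = 7.61e-05). CLU, the secreted chaperone clusterin, rose from 20.8 ± 1.9 to 36.1 ± 3.1 CPM (SD, n = 3 each; log2 fold change 0.80 ± 0.10; edgeR adjusted p = 0.000227). SIGLEC6, a sialic acid receptor found on mast cells, rose from 0.802 ± 0.098 to 1.39 ± 0.08 CPM (SD, n = 3 each; log2 fold change 0.79 ± 0.16; edgeR adjusted p = 0.00353). CD9, LIF and AKAP12 also passed, but each had a mean under 1 CPM, and they lost the call in 10, 8 and 12 of 19 alternative settings.

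SRGN encodes serglycin, the proteoglycan on which granule proteases are stored in mast cells and in other myeloid cells. It stood at 121, 93.9 and 106 CPM in controls and 121, 160 and 150 CPM under knockdown, and the groups overlapped through control replicate 1 and knockdown replicate 1. It rose by 0.43 ± 0.12 on the log2 scale (SE; edgeR adjusted p = 0.0209), a call that was lost in 4 of 20 alternative settings, namely with the replicate number as a block (adjusted p = 0.086) and without FBL knockdown replicate 2 (0.107), control replicate 3 (0.0761) or FBL knockdown replicate 3 (0.0651). CTSG, cathepsin G, a protease of neutrophil precursors and of some mast cells, was the 1 lower gene: it fell from 60.4 ± 1.9 to 44.8 ± 0.5 CPM (SD, n = 3 each; log2 fold change -0.43 ± 0.08; edgeR adjusted p = 0.00171). So the tryptase and cathepsin G transcripts moved in opposite directions. The chymase gene CMA1 failed the filter, with 11, 9 and 4 counts in controls and 2, 3 and 1 under knockdown, and was not tested.

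KIT, the receptor for stem cell factor, was abundant and did not pass the test. It stood at 95.1, 72.1 and 87.3 CPM in controls and at 68.4, 79.0 and 83.3 CPM in knockdown libraries, with overlapping groups (log2 fold change -0.14 ± 0.11, SE; edgeR adjusted p = 0.372). Per length, mean RPKM over the 6 libraries was 14.5 for KIT and 103 for SRGN, above the 2.18 of TPSAB1 and the 2.36 of TPSB2. TPSD1 was at 0.555 RPKM by the same measure. These comparisons also depend on how reads that match both TPSAB1 and TPSB2 were counted, which is not known.

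**Figure D3:**
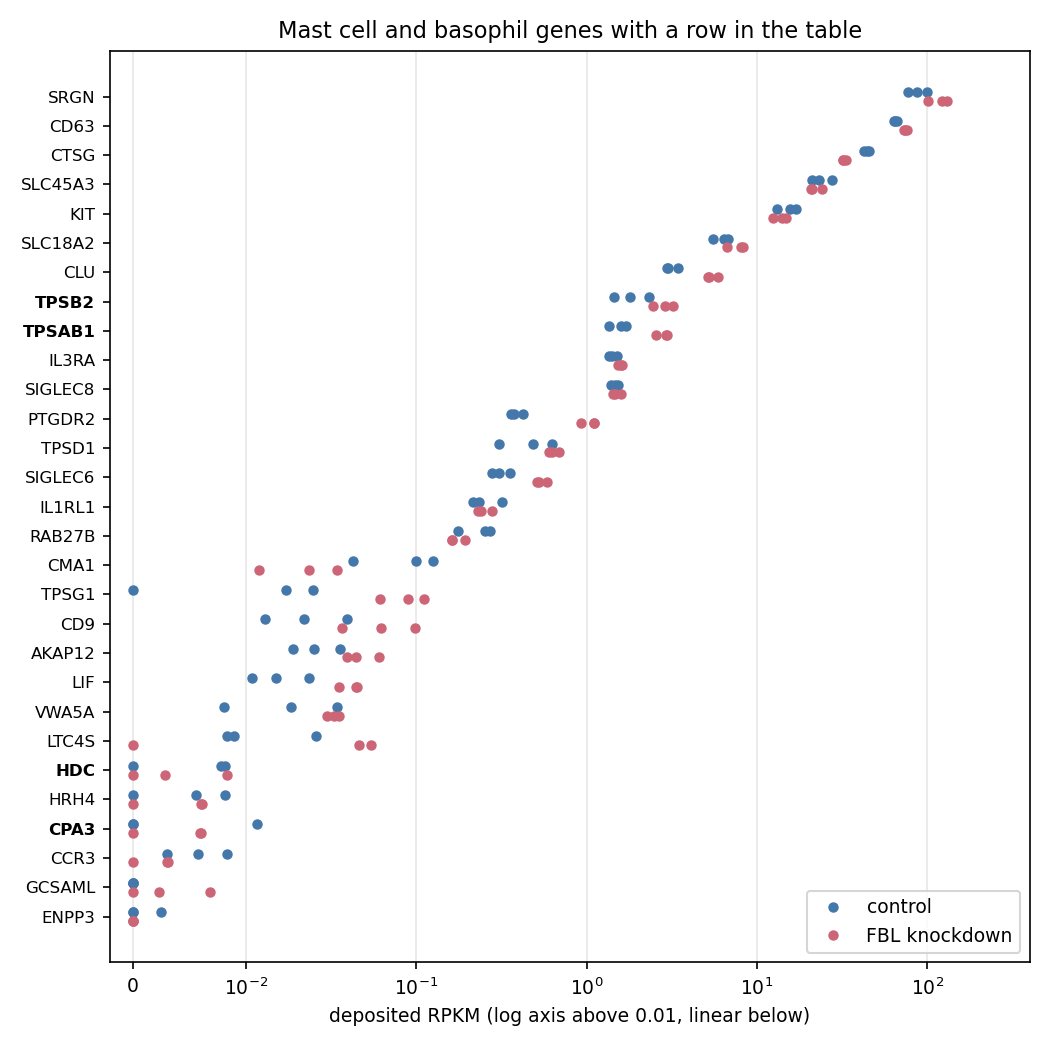
Deposited RPKM (horizontal axis, logarithmic above 0.01 and linear below) of the members with a row (bold) and of the other mast cell and basophil genes with a row, 1 point per library, controls in blue and FBL knockdown in red. SRGN, CD63 and CTSG are at the top, TPSAB1 and TPSB2 between 1.34 and 3.24 RPKM, and CPA3 and HDC at or near 0.

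The IgE receptor was examined next, since its alpha and beta chains belong to the set. The shared gamma chain, FCER1G, had 102 to 128 counts per control library and 126 to 167 per knockdown library, or 1.36, 1.04 and 1.27 against 1.37, 1.44 and 1.88 CPM. The groups nearly touched, and the difference did not pass (log2 fold change 0.35 ± 0.18, SE; edgeR adjusted p = 0.15). Of 25 genes of the signalling pathway behind the receptor, 24 were tested, of which 3 were higher, 10 lower and 11 did not pass, with a median of -0.21 (15.8% of all tested genes were called higher and 17% lower). Most of these genes also serve other receptors of blood cells.

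The largest rise in that pathway was in FYN, a SRC family kinase, which went from 0.714 ± 0.188 to 2.23 ± 0.29 CPM (SD, n = 3 each; log2 fold change 1.64 ± 0.19; edgeR adjusted p = 0.000174). LYN and SYK, the kinases closest to the receptor, were at -0.001 and 0.19 and did not pass (edgeR adjusted p = 0.995 and 0.323). The adaptor DOK1 fell from 238 ± 27 to 115 ± 19 CPM (SD, n = 3 each; log2 fold change -1.05 ± 0.12; edgeR adjusted p = 0.000173). PLCG1, the phospholipase that starts calcium release, fell by 0.76 ± 0.09, and the phosphatase PTPN6 by 0.59 ± 0.09 on the log2 scale (SE; edgeR adjusted p = 0.000162 and 0.000837).

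Genes for making, storing and answering to histamine gave no call: of 9 genes 7 had a row, 3 were tested, and 0 passed by edgeR's quasi-likelihood test. Over all tested genes 15.8% were called higher and 17% lower. HDC was near 0, as described. SLC18A2, the vesicular monoamine transporter that loads histamine into granules, was at 27.9, 22.7 and 26.5 CPM in controls and 27.3, 33.5 and 34.3 CPM in knockdown libraries, with knockdown replicate 1 inside the control range (log2 fold change 0.30 ± 0.11, SE; edgeR adjusted p = 0.0612). The histamine receptor HRH2 was at 0.23 ± 0.09 (SE; edgeR adjusted p = 0.0759) and passed in 4 of its 20 alternative settings, with adjusted p from 0.00651 to 0.253. By DESeq2, SLC18A2 passed (adjusted p = 0.0415), and 7 of its 20 alternative settings gave a call. The transporter was thus well expressed while the enzyme that makes histamine was close to 0.

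In the prostaglandin and leukotriene pathway, 10 of 17 genes were tested, of which 3 were higher and 1 lower, against 15.8% and 17% of all tested genes, with a median of 0.06. HPGDS is the member of this pathway and had no row. PTGDR2 is among the 3, as is PTGES, a prostaglandin E synthase with a mean just under 1 CPM (log2 fold change 1.51; edgeR adjusted p = 0.000205). ALOX5, the 5-lipoxygenase of leukotriene synthesis, rose from 1.11 ± 0.12 to 1.89 ± 0.20 CPM (SD, n = 3 each; log2 fold change 0.77 ± 0.15; edgeR adjusted p = 0.00345). PTGES3, a co-chaperone also described as a prostaglandin E synthase, fell by 0.40 ± 0.09 on the log2 scale (SE; edgeR adjusted p = 0.00516). PTGS1, the cyclooxygenase that feeds prostaglandin D2 synthesis, did not pass (0.20 ± 0.09, SE; edgeR adjusted p = 0.111).

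Enzymes that build heparin and related chains on serglycin, together with genes of granule release, had calls in both directions at shares near those of all tested genes. Of 27 genes 26 were tested, 6 were higher and 4 lower (15.8% and 17% over all tested genes), and the median was 0.02. B4GALT7, which adds a sugar of the linker to which the chains are attached, rose from 45.4 ± 6.9 to 85.8 ± 8.5 CPM (SD, n = 3 each; log2 fold change 0.92 ± 0.12; edgeR adjusted p = 0.000274), and the chain polymerase EXT2 rose by 0.59 ± 0.08 (edgeR adjusted p = 0.000391). The membrane fusion protein STX4 fell from 7.27 ± 0.28 to 3.21 ± 0.37 CPM (SD, n = 3 each; log2 fold change -1.18 ± 0.12; edgeR adjusted p = 6.82e-05), and the chondroitin synthase CHSY1 fell by 0.60 ± 0.08 (edgeR adjusted p = 0.000347).

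Of 18 tested transcription factors of the mast cell and basophil lineages, 4 were higher and 3 lower, also near the 15.8% and 17% of all tested genes, with a median of 0.04. GATA2 was at 53.5, 71.0 and 59.6 CPM in controls and 72.2, 70.2 and 65.8 CPM in knockdown libraries, with overlap (log2 fold change 0.18 ± 0.11, SE; edgeR adjusted p = 0.225). With 1 library left out GATA2 ranged from 0.09 without control replicate 1 (adjusted p = 0.562) to 0.29 without control replicate 2 (adjusted p = 0.0209), and it passed with the GC correction (adjusted p = 0.0378). MITF was weak, with 15 to 29 counts in control and 22 to 51 in knockdown libraries, and did not pass (edgeR adjusted p = 0.332). GATA1 had 0, 0 and 4 counts in controls and 0, 3 and 1 under knockdown, too few to be tested. ZFPM1, a cofactor of GATA proteins, rose by 0.79 ± 0.21 (SE; edgeR adjusted p = 0.0131, but 0.0616 without control replicate 3), while the LIM-only cofactor LMO2 fell by 0.60 ± 0.08 and the repressor GFI1 fell by 0.45 ± 0.07 (SE; edgeR adjusted p = 0.000265 and 0.00107). CEBPA rose by 0.40 ± 0.13 (SE; edgeR adjusted p = 0.0341), a call lost in 8 of 20 alternative settings, among them each omission of 1 library other than control replicate 2, with adjusted p from 0.0701 to 0.12.

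**Figure D4:**
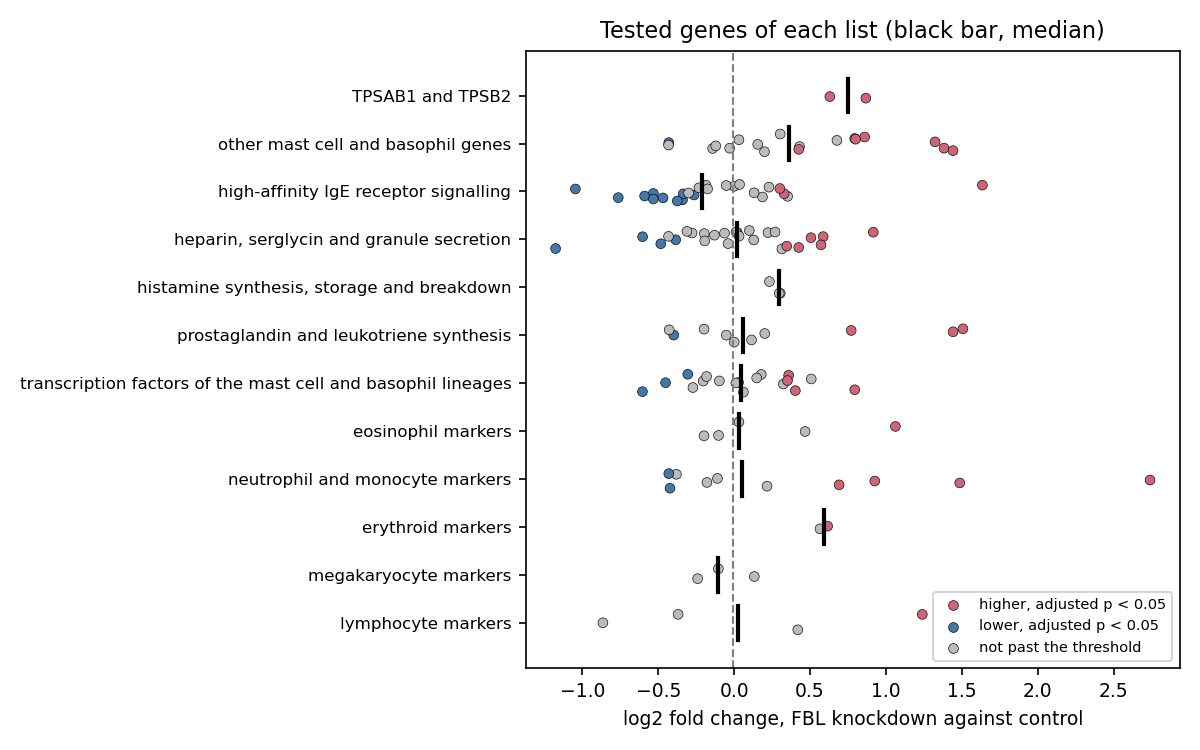
Log2 fold change of FBL knockdown against control (horizontal axis) for every tested gene of each list (vertical axis), coloured by call, with a black bar at the median of the list and a dashed line at the median of all tested genes (-0.01). The tryptase pair (0.87 and 0.63) lies to the right, and 10 genes of the IgE receptor pathway are called lower.

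The tryptase genes sit in a cluster on chromosome 16, and their nearest neighbours were looked up, a choice and a distance set after values had been seen. GENCODE v29 lists 12 genes, counting the pair, that reach within 50 kb of it on either side. Of these 7 had a row and 4 were tested. Genes farther out are not reported here. Of the 4, 3 were called higher, against 15.8% of all tested genes, but these include the pair around which the region was drawn. Beside the pair 1 gene was higher, CACNA1H, a T-type calcium channel gene (1153121 to 1221772, plus strand). It stood at 0.751, 1.14 and 0.653 CPM in controls and 2.17, 2.11 and 1.91 CPM in knockdown libraries, with no overlap (log2 fold change 1.29 ± 0.20, SE; edgeR adjusted p = 0.00072). TPSD1 (1256059 to 1258998, plus strand) was at 0.472, 0.952 and 0.742 against 1.04, 0.965 and 0.925 CPM and did not pass (0.43 ± 0.23, SE; edgeR adjusted p = 0.175), with 0.20 without control replicate 1 (adjusted p = 0.47) and 0.68 without control replicate 2 (adjusted p = 0.0204). TPSG1, whose end overlaps that of CACNA1H on the other strand, had 2, 3 and 0 counts in controls and 7, 13 and 10 under knockdown, below the filter and untested.

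**Figure D5:**
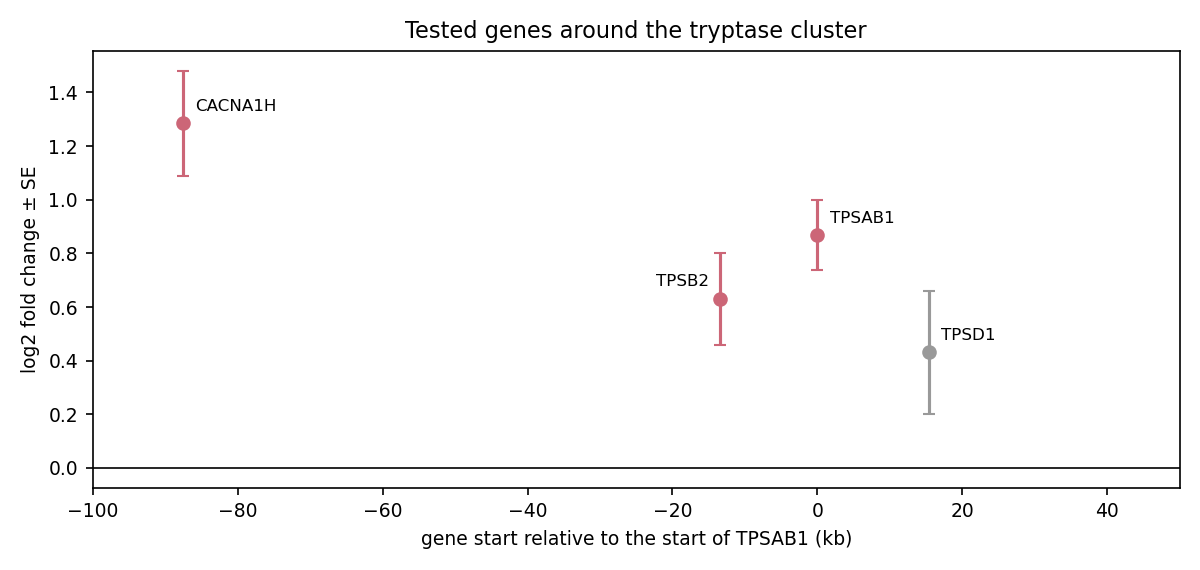
Log2 fold change ± SE (vertical axis) of the 4 tested genes that reach within 50 kb of the tryptase pair, placed by the distance of their lower coordinate from that of TPSAB1 in kb (horizontal axis); red is higher and grey not past the threshold. CACNA1H (1.29), TPSB2 (0.63) and TPSAB1 (0.87) are red, and TPSD1 (0.43) is grey.

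Among tested genes at 10 CPM or more, those whose log2 CPM over the 6 libraries was most like that of TPSAB1 were PTPN18 (Pearson r = 0.997) and POLR2J (r = 0.997). For TPSB2 they were TEX2 (r = 0.996) and ADIPOR2 (r = 0.991). These are the highest of many correlations, the points fall into the 2 groups, and the genes changed far less than the tryptases, with log2 fold changes from 0.23 to 0.31. TPSAB1 and TPSB2 themselves were correlated at r = 0.934 over the same libraries, and these rows may share reads.

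Markers of other blood lineages were listed beside the set. For each list the share over all tested genes was 15.8% called higher and 17% called lower. The summed CPM of 10 eosinophil markers was 40.8 to 53.2 in controls and 39.7 to 49.1 in knockdown libraries, and 1 of 5 tested was higher, CLC, the galectin of eosinophil and basophil crystals (0.327 ± 0.055 to 0.682 ± 0.103 CPM, SD, n = 3 each; edgeR adjusted p = 0.00432). The eosinophil granule protein gene PRG2 was at 0 or 1 count in every library. The 13 neutrophil and monocyte markers with a row summed to 8240 to 11049 CPM in controls and 6790 to 7984 CPM in knockdown libraries, mostly MPO, with 4 of 10 tested genes higher and 2 lower (15.8% and 17% over all tested genes). The 4 were S100A8, LYZ, CSF1R and CSF3R, with log2 fold changes of 2.74, 1.49, 0.93 and 0.69 (edgeR adjusted p = 7.49e-05, 0.00481, 0.000736 and 0.00101). The 2 lower were CTSG (-0.43, as given above) and MPO (-0.42, edgeR adjusted p = 0.0134). MPO lost the call in 4 of 20 alternative settings. S100A8 and LYZ each had a mean under 1 CPM. Over the alternative settings S100A8 ranged from 0.84 to 3.32 and LYZ from 0.20 to 1.93. Without control replicates 1 and 2 the LYZ value was 0.89 (edgeR adjusted p = 0.0912). For erythroid, megakaryocyte and lymphocyte markers the sums were 7.26 to 10.3 against 13.2 to 13.7 CPM, 1.93 to 2.25 against 1.92 to 2.03 CPM, and 1.94 to 2.44 against 2.80 to 3.07 CPM. The erythroid sum was mostly KLF1, the 1 call among 2 tested erythroid genes. KLF1 rose from 8.55 to 13.1 CPM (log2 fold change 0.62 ± 0.13, SE; edgeR adjusted p = 0.00376). The other 7 of the 9 erythroid rows failed the filter, and HBA1, HBA2 and AHSP were at 0 in every control library. Of 4 tested lymphocyte genes 1 was higher, NKG7 (0.469 to 1.11 CPM; edgeR adjusted p = 0.000835), and of 3 tested megakaryocyte genes 0 were called by edgeR. The part of these markers in the tryptase values was not tested.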

How the data were processed

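The authors deposited whole-number counts per Ensembl gene and RPKM values for 6 libraries. Per the submitters' processing notes, cutadapt 1.18, HISAT2, featureCounts, edgeR and GRCh38 were used. The sources used here do not give strandedness at counting, the annotation release or how multiply matching reads were handled. Counts were filtered with filterByExpr (minimum count 10, minimum total 15), scaled by TMM and tested on group alone with edgeR 4.0.16's quasi-likelihood test (R 4.3.3), with Benjamini-Hochberg adjustment over 18486 genes and a threshold of 0.05. CPM use the TMM-scaled library, and 3 counts are the floor. Alternatives were DESeq2 1.42.0, limma 3.58.1 (voom, or trend on log2 of RPKM plus 1 or 0.1, which understates low genes), other scalings and filters, a replicate block and the omission of each library. Those on GC content, protein-coding genes and TPSD1 in the sum were chosen after the data were seen. Positions and transcripts are GENCODE v29 (GRCh38). The test was tried on simulated data. The members and lists were chosen with earlier results of these data known. From each pathway list, up to 4 called genes with the largest change at 1 CPM or more were named, or the 2 with the smallest p where none passed, plus KIT, FCER1G, GATA1, GATA2, MITF, SRGN and FBL. LYN, SYK, PTGS1, PTGES, CD9, LIF, AKAP12, CMA1, TPSD1, TPSG1, PRG2, CLC, S100A8, LYZ, HBA1, HBA2, AHSP and the neighbours of the cluster were named after their values were seen. 1 item near the tryptase cluster is not reported here.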

Additional observations from a re-analysis of the deposited data

How the results depend on the processing

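TPSAB1 kept its direction and its call in all 19 alternative settings that gave it a value (log2 fold changes 0.58 to 0.96, adjusted p up to 0.00852), and the summed tryptase row in all 17 (0.61 to 0.87). TPSB2 kept its direction in 19 and its call in 17. With 1 library left out at a time TPSB2 ranged from 0.48 to 0.82, and both lost calls were among these fits. The number of members called higher was then 1 to 2. It was 0 under the stricter filter, which asks for a mean of 5 CPM or more and so removes both rows by construction. With the replicate block both tryptase genes stayed past the threshold (0.87 and 0.64), while 1846 genes were called higher and 1987 lower, in place of 2920 and 3141. The numbers share no stated pairing, and same-numbered libraries did not deviate together (r = -0.28, -0.20 and 0.04). Under the stricter filter 1926 genes were called higher. Leaving out 1 library gave 1861 to 3298 higher and 1835 to 3645 lower genes. Histamine genes gave 1 higher call with DESeq2 size factors in edgeR and 2 with upper-quartile scaling, in place of 0; the cause was not tested. Of 48 other tested genes named in the text, 36 passed, and 25 of these passed in every setting that gave a value, while 11 lost the call in some and 6 of the 12 others gained one. The sign turned for GP1BA, a megakaryocyte marker that passed in no setting, with -0.0048 to 0.274 when 1 library was left out. LYN, at -0.001, lay near 0 throughout and passed in no setting, with 0.0064 under DESeq2 size factors, 0.064 under upper-quartile scaling, 0.048 under the stricter filter, 0.0087 among protein-coding genes, 0.030 with the GC correction and -0.033 to 0.051 with 1 library left out. CPA3, HDC, TPSG1 and CMA1 had too few counts for a test.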
